A study of Mus musculus with 6 samples.

Results

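The S100 calcium binding proteins were followed through RNA sequencing of 6 mouse breast tumors. The 10 genes S100a1, S100a4, S100a6, S100a8, S100a9, S100a10, S100a11, S100a13, S100a14 and S100a16 were chosen by gene family and found by their NCBI Gene identifiers among 18460 genes listed in at least 1 tumor. All 10 had counts in every tumor, and all 10 passed edgeR's filter on low counts, which kept 13706 genes. The tumors came from Balb/c mice that carried the MMTV-PyMT transgene, which drives the polyoma middle T oncogene in mammary epithelium, on a Rag1KO background without T or B cells of their own. Both groups had been injected at 4 wk of age with naive CD4+ T cells sorted from spleen, and tumors were taken at 18 to 20 wk. The 3 test mice also carried K14-TSLPtg, in which the keratin 14 promoter drives the cytokine thymic stromal lymphopoietin in keratinocytes, and the 3 control mice did not. The labels number the tumors 1 to 3 in each group. Legends in the paper describe every tumor as coming from its own mouse. The comparison asks how the presence of TSLP during CD4+ T cell transfer changes tumor transcription.

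S100 proteins are small proteins that bind calcium through a pair of EF-hand motifs and mostly work as dimers. Inside the cell they bind target proteins when calcium rises, and several are also released and bind receptors such as RAGE (encoded by Ager) and TLR4. In breast cancer the family is known for S100a4, named for its link with metastasis, and for S100a8 and S100a9, which together form calprotectin in neutrophils and monocytes.

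Total expected counts ran from 8373390 to 9449565 per tumor, so that a floor of 3 counts lay between 0.317 and 0.358 CPM (counts scaled to a common library size, scaled by edgeR's TMM method). Tslp had 2, 2 and 3 counts in control tumors 1 to 3 and 12, 7 and 2 in test tumors 1 to 3. The transgene is driven in keratinocytes, and these counts are too few to check the labels. Epithelial markers were present in all 6 tumors, with a summed level of 2081 to 6132 CPM over 10 genes, whereas 8 T cell markers summed to 5.65 to 9.64 CPM. In test tumor 2 short genes stood high, with a median centred log2 level of 0.77 over 892 genes of 500 to 1000 bases, against -0.33 to 0.01 in the other 5 tumors. The S100 genes are 392 to 1091 bases long by the deposited lengths, so estimates with this trend removed are given for each of them.

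The 10 genes lie on chromosome 3 in a pair of groups (GRCm38, the build named mm10 in the deposited data). S100a1, S100a13, S100a14, S100a16, S100a4, S100a6, S100a8 and S100a9 occupy 184688 bases at chr3:90511034-90695721, and S100a11 and S100a10 occupy 44150 bases at chr3:93520496-93564645. S100a1 on the minus strand and S100a13 on the plus strand overlap by 98 bases at their starts, where reads counted without strand cannot be told apart. S100a4 overlaps Gm42674 on the same strand in the GENCODE annotation but overlaps no other gene in RefSeq, and sharing of its reads was not tested. The stretches before the start of S100a16, S100a11, S100a4, S100a8 and S100a9 are shown because these genes include the largest fold change (S100a16), the highest level (S100a11) and wide spreads between tumors (S100a4 and S100a9, with S100a8 as the partner of S100a9). Sequences are from RefSeq GRCm38.p6, which held promoter windows for 8 of the 10 genes (not S100a10 and S100a14). Each was taken from within 200 bases upstream of the start, leaving out annotated exons. They are chr3:90540946-90541145, plus strand for S100a16 (the more downstream of its starts), chr3:93520296-93520487, plus strand for S100a11, chr3:90603570-90603769, plus strand for S100a4, chr3:90668871-90668977, plus strand for S100a8 and chr3:90695722-90695921, minus strand for S100a9. Capitals mark matches, on either strand, to TGANTCA (AP-1-like), TTNCNNAA (C/EBP-like) or TATAAA.
S100a16: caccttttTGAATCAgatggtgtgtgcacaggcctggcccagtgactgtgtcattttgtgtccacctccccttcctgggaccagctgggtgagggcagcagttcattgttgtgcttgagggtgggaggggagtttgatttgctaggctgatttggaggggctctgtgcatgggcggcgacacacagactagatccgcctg
S100a11: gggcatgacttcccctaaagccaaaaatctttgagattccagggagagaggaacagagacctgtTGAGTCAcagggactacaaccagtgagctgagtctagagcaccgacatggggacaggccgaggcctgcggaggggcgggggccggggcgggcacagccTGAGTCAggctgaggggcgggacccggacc
S100a4: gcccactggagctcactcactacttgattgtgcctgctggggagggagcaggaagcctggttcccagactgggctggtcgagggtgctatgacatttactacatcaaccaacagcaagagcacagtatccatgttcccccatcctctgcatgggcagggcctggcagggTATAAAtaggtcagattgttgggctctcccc
S100a8: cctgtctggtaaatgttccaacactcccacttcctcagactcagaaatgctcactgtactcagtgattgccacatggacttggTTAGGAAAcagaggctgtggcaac
S100a9: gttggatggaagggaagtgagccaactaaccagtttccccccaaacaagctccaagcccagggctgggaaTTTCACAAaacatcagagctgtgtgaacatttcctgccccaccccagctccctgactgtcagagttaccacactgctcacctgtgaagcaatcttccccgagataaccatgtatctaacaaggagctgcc

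Over whole windows of 250 bases before to 50 after the start, TGANTCA was held by 2 of 9 S100 windows (S100a16 and S100a11) and by 7.8% of 32851 windows of all genes. TTNCNNAA was held by 2 of 9 (S100a8 and S100a9) and by 40.7% of all windows. TATAAA was found in 3 of 9, at position -31 in S100a4, at -30 in S100a8 and at the start itself in S100a9, and in 13.6% of all windows. The NF-kB-like motif was held by 1 of 9, the more upstream S100a16 window, and by 4.8% of all windows, and the E-box CANNTG by 7 of 9 and by 72.3%. In S100a16, the TGAATCA match at -192 overlaps an E-box match that begins at -187. These matches describe letters in the windows only, and binding was not measured.

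Levels can be compared between genes per length, in FPKM. S100a11, which binds annexin A1, was by far the most abundant, with a mean of 1269 FPKM over the 6 tumors (range 960 to 2210). S100a1 (mean 247 FPKM), S100a10 (186), S100a6 (161) and S100a16 (84.0) formed the next tier. S100a13 (32.4 FPKM), S100a8 (28.6), S100a9 (24.02), S100a4 (15.3) and S100a14 (7.16) were low. Only S100a11 and S100a1 were neighbors in this order without overlapping ranges. S100a6 exceeded S100a16, and S100a16 exceeded S100a13, within each of the 6 tumors, whereas S100a13 exceeded S100a8 in 2 tumors.

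S100a1 and S100a16 were higher in every test tumor than in any control tumor, with a ratio of group means of 2.46 and 2.51. The quasi-likelihood test of edgeR called 0 of the 10 genes at a false discovery rate of 0.05, a threshold that 0% of the 13706 tested genes passed, and limma-trend on FPKM called none of the 10 either. At an unadjusted p under 0.05, 2 of the 10 genes were higher, against 3.15% of all genes, and 0 were lower, against 5.26%. DESeq2 called 2 S100 genes at the same false discovery rate, S100a1 and S100a16, both higher, against 0.662% of 14809 genes called higher. In 3 of the 10 genes (S100a1, S100a16 and S100a11) the groups did not overlap, all with the test tumors higher, against 6.12% of all genes, and in 0 with the test tumors lower, against 5.86%. The log2 fold change was above 0 in 7 of the 10 genes, with a median of 0.75. Over all tested genes the median was 0.018, but it was 0.63 over 104 genes under 500 bases and 0.39 over 892 genes of 500 to 1000 bases, the lengths of most S100 genes. With each tumor's trend with gene length removed, the median of the 10 genes was 0.24. The counts depended on test tumors 1 and 3. Without test tumor 1, 6 genes (S100a1, S100a6, S100a10, S100a11, S100a13 and S100a16) had an unadjusted p under 0.05 and did not overlap, against 3.24% and 12% of all genes higher in the same setting. Without test tumor 3, 5 did not overlap, with 3 higher and S100a8 and S100a9 lower in the test tumors, against 12.1% of all genes higher and 10.7% lower.

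**Figure D1:**
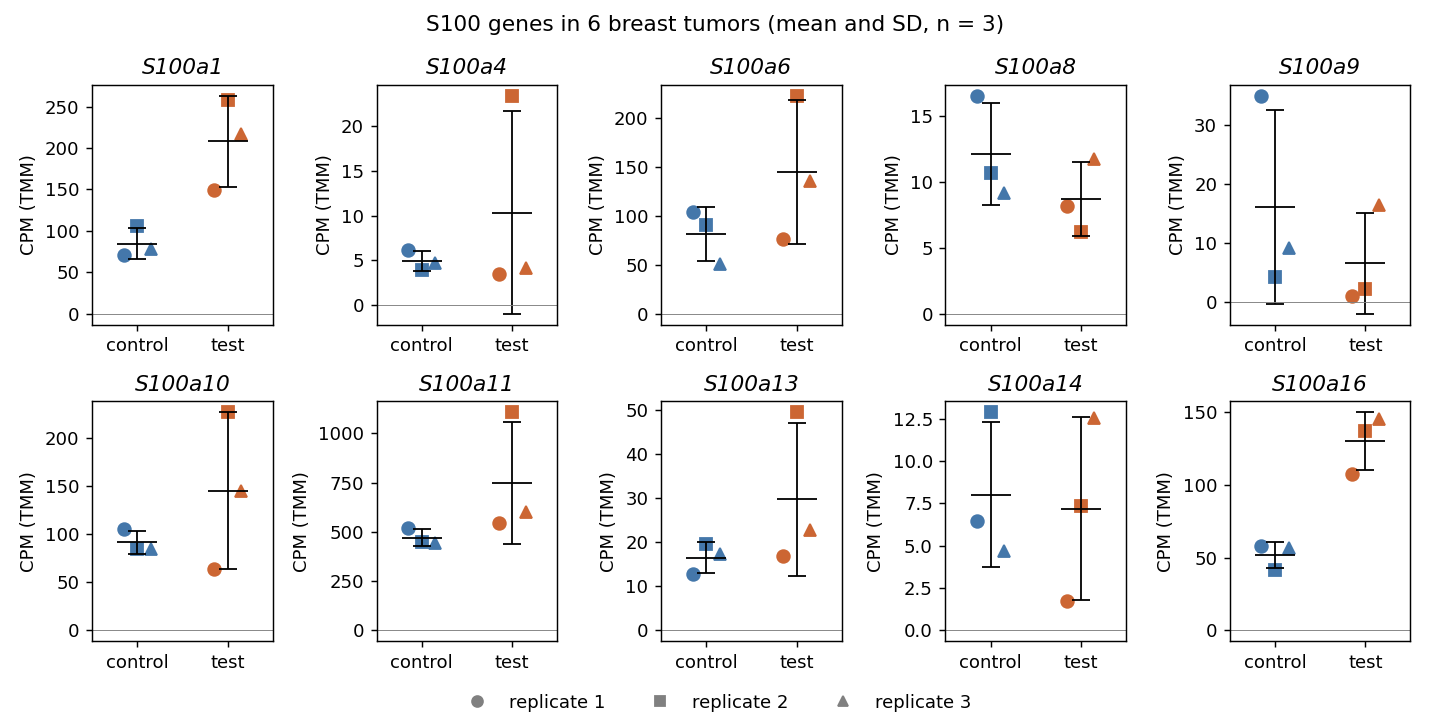
Level of each S100 gene in each tumor in CPM on TMM library sizes (linear axes that differ between panels). Points are tumors, with the replicate number as shape, and bars are the mean and SD of 3 tumors. The test tumors lie above all control tumors for S100a1, S100a11 and S100a16, and test tumor 2 (square) is the highest of all for 6 of the 10 genes.

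S100a1 is best known from heart and skeletal muscle, where it acts on calcium cycling. Its level was 70.4, 106 and 77.8 CPM in control tumors 1 to 3 and 149.7, 258 and 216 CPM in test tumors 1 to 3. The lowest test tumor stood above the highest control tumor. The means were 84.6 ± 18.7 CPM and 208 ± 54.8 CPM (SD, n = 3). The log2 fold change was 1.30 ± 0.30 (SE), with an unadjusted p of 0.00285 and an adjusted p of 0.394 in edgeR, and an adjusted p of 0.0154 in DESeq2. The exact two-sided permutation test over the 6 tumors gave p = 0.1, the smallest it can give. By unadjusted p, S100a1 ranked 83 of 13706 genes. Skeletal muscle markers were also higher in the test tumors, in 11 of 11 genes, with sums of 8.33, 208.8 and 7.03 CPM in the control tumors and 1094, 201 and 115 CPM in the test tumors. Control tumor 2 had both the highest muscle sum and the highest S100a1 of the control tumors. Test tumor 1 had the highest muscle sum of all tumors and the lowest S100a1 of the test group. The part of muscle in the S100a1 level was not tested. With each tumor's trend with gene length removed, the log2 fold change was 0.93, with an unadjusted p of 0.00378.

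S100a16 is a widely expressed member with atypical calcium binding. It was measured at 57.6, 41.2 and 56.4 CPM in the control tumors and at 108, 137 and 145 CPM in the test tumors. The 3 control tumors lay close together and far from the 3 test tumors. The means were 51.7 ± 9.14 CPM and 129.9 ± 19.8 CPM (SD, n = 3). On the log2 scale the fold change was 1.33 ± 0.26 (SE), with an unadjusted p of 0.000967 and an adjusted p of 0.394 in edgeR, and an adjusted p of 0.00261 in DESeq2. The exact permutation test gave p = 0.1. S100a16 ranked 21 of 13706 genes by unadjusted p, and when the trend with gene length was removed the log2 fold change was 1.08, with an unadjusted p of 0.00553. Epithelial markers summed to 2326, 4575 and 2081 CPM in the control tumors and to 5782, 5667 and 6132 CPM in the test tumors, with 10 of 10 genes higher and 3 at an unadjusted p under 0.05. Krt18, the highest of them, was 450 to 1223 CPM in the control tumors and 1418 to 1679 CPM in the test tumors. Both the epithelial sum and S100a16 were higher in every test tumor than in any control tumor, and both were highest in test tumor 3. Control tumor 2 had the highest epithelial sum of the controls and the lowest S100a16 of all 6 tumors. The part of epithelial cells in the S100a16 level was not tested. In whole tumors, fewer cells of a type and less RNA per cell cannot be told apart.

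S100a11 stood at 520.2, 449.7 and 443 CPM in the control tumors and at 545, 1107 and 601 CPM in the test tumors. The groups did not overlap, but the lowest test tumor was only slightly above the highest control tumor. This gave a log2 fold change of 0.67 ± 0.35 (SE, n = 3 per group, adjusted p of 0.666 in edgeR). Without test tumor 2 it was 0.29, and with the trend with gene length removed it was 0.19 and the groups overlapped. A pseudogene copy of S100a11 is annotated elsewhere in the genome, and reads shared with it are uncertain.

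S100a10 forms a tetramer with annexin A2 that presents plasminogen at the cell surface. It was 105, 84.1 and 84.3 CPM in the control tumors and 63.8, 226 and 145 CPM in the test tumors. Test tumor 1 was the lowest and test tumor 2 the highest of all 6. The log2 fold change was 0.67 ± 0.43 (SE), and the adjusted p in edgeR was 0.714. S100a6, or calcyclin, followed nearly the same course, at 104, 90.5 and 50.8 CPM in the control tumors and 76.7, 223 and 136 CPM in the test tumors, with overlapping groups. Its log2 fold change was 0.83 ± 0.44 (SE), with an adjusted p of 0.684. These were each other's nearest member, with centred log2 levels that differed by 0.22 on average over the 6 tumors, and their centred levels in test tumor 2 were 1.06 and 1.13. With the trend with gene length removed, the log2 fold changes were 0.17 for S100a10 and 0.36 for S100a6.

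S100a13, which takes part in the release of FGF1 and interleukin-1 alpha, shares its start region with S100a1. It was 12.7, 19.6 and 17.4 CPM in the control tumors and 16.95, 49.6 and 22.8 CPM in the test tumors. Only test tumor 2 stood well apart. Its log2 fold change was 0.85 ± 0.44 (SE, adjusted p of 0.666 in edgeR), and 0.39 with the trend with gene length removed (unadjusted p of 0.156 in edgeR). The groups then did not overlap, but only narrowly, with centred levels of -0.08 in control tumor 3 and -0.07 in test tumor 1. In the counts as deposited, the centred level of S100a13 was nearest to that of S100a11, and not to that of its neighbor S100a1.

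**Figure D2:**
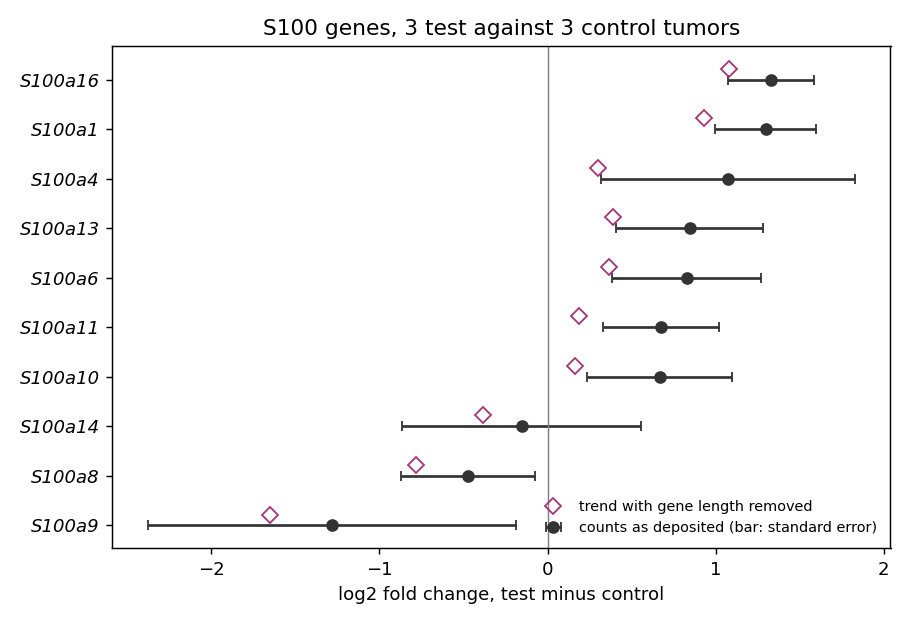
Log2 fold change of each S100 gene, test minus control (x axis, log2). Filled circles with bars give the estimate and its standard error from the counts as deposited, and open diamonds the estimate with each tumor's trend with gene length removed. Removing the trend lowered all 10 estimates, and S100a16 (1.08) and S100a1 (0.93) remained the 2 highest.

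**Figure D3:**
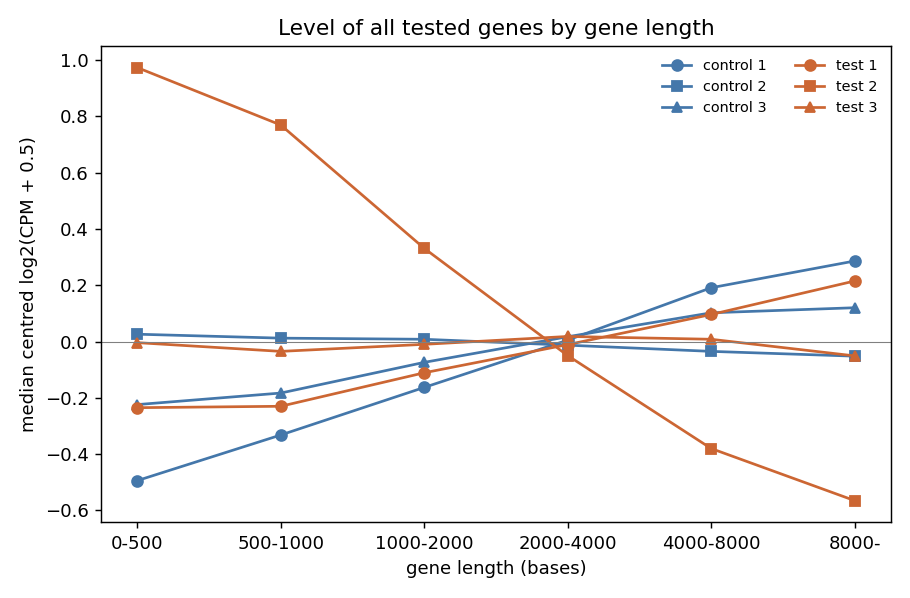
Median centred log2(CPM + 0.5) of all tested genes (y axis) by gene length in bases (x axis) for each tumor. Test tumor 2 falls from 0.97 for genes under 500 bases to -0.57 for genes of 8000 bases or more, and the other 5 tumors stay between -0.49 and 0.29.

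S100a4, also called metastasin or fibroblast-specific protein, was 6.13, 3.89 and 4.69 CPM in the control tumors and 3.46, 23.4 and 4.14 CPM in the test tumors. A single tumor, test tumor 2, stood above the rest, and the other test tumors were within or under the control range. The log2 fold change was 1.07 ± 0.76 (SE, adjusted p of 0.737 in edgeR), and it was 0.30 with the trend with gene length removed and turned to -0.36 without test tumor 2. The summed level of fibroblast markers, led by Col1a1, was 5144 CPM in test tumor 2 against 1068 to 3058 CPM in the other 5 tumors. Collagen genes carried that sum, and only 5 of the 10 markers were highest in test tumor 2. Of the 10, 6 were higher and 4 lower in the test group. Mesenchymal markers other than Spp1 summed to 794 CPM in test tumor 2, against 612 to 3266 CPM in the control tumors. In control tumor 1, where that sum was highest, S100a4 was 6.13 CPM, the highest of the control tumors and above test tumors 1 and 3. The part of fibroblasts in the S100a4 level was not tested.

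S100a14, an epithelial member, was 6.48, 12.9 and 4.69 CPM in the control tumors and 1.73, 7.32 and 12.5 CPM in the test tumors. The groups overlapped fully, and the highest values were in control tumor 2 and test tumor 3. Its log2 fold change was -0.15 ± 0.71 (SE, adjusted p of 0.963 in edgeR). The estimate became 0.37 without control tumor 2 and 0.31 without test tumor 1, so its direction was not set. With the trend with gene length removed it was -0.39. Control tumor 2 and test tumor 3 also had the highest epithelial sums of their groups, at 4575 and 6132 CPM. Unlike the 10 epithelial markers, S100a14 was lowest in test tumor 1, where the epithelial sum was 5782 CPM. The part of epithelial cells in the S100a14 level was not tested.

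S100a8 and S100a9 form calprotectin, which is stored in neutrophils and binds TLR4 and RAGE once released. S100a8 was 16.5, 10.7 and 9.16 CPM in the control tumors and 8.19, 6.23 and 11.8 CPM in the test tumors. S100a9 was 34.95, 4.22 and 9.27 CPM in the control tumors and 1.04, 2.32 and 16.4 CPM in the test tumors. Both genes were lower in test tumors 1 and 2 than in every control tumor, but test tumor 3 lay inside the control range. The log2 fold changes were -0.47 ± 0.40 for S100a8 and -1.28 ± 1.10 for S100a9 (SE), with adjusted p of 0.783 and 0.784 in edgeR. With the trend with gene length removed they were -0.78 and -1.65. Control tumor 1 and test tumor 3 set the S100a9 estimate, which was -0.03 without the former and -3.24, with an unadjusted p of 0.0184, without the latter. S100a9 had the widest range of the 10 genes, with 33.7 times more in the highest than in the lowest tumor, against 2.66 times for S100a8. It had 9 counts in test tumor 1 and 19 in test tumor 2, so those values carry large counting error.

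The ratio of S100a9 to S100a8 counts was not constant. It was 2.11, 0.394 and 1.01 in control tumors 1 to 3 and 0.127, 0.373 and 1.40 in test tumors 1 to 3, in overlapping groups. The neutrophil markers Ly6g and Mpo were not listed in any tumor. Lcn2, at 8488 to 14571 CPM, and Ltf, at 284 to 6956 CPM, are also made by mammary epithelium and dominated the list. Of the 9 neutrophil markers tested, 3 were higher and 6 lower, and Ltf alone had an unadjusted p under 0.05. Leaving out both, a choice made after their values were seen, the sums were 94.4, 79.5 and 61.1 CPM in the control tumors and 26.4, 91.8 and 51.6 CPM in the test tumors. Most of the sum in test tumor 2 came from Cxcr2 (49.6 CPM) and Cd177 (26.1 CPM), which were 21.5 and 6.13 CPM in control tumor 1. The sums of these tumors were nearly the same, at 91.8 and 94.4 CPM. The other 5 tested markers were lower in test tumor 2 than in control tumor 1. Among them were Csf3r at 10.99 against 39.2 CPM and Mmp9 at 1.10 against 15.045 CPM. Of these 5, Il1r2, Mmp8, Stfa2l1 and Mmp9 had only 1, 7, 8 and 9 counts in test tumor 2. These genes were named after their values were seen. The part of neutrophil number in the S100a8 and S100a9 levels was not tested.

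**Figure D4:**
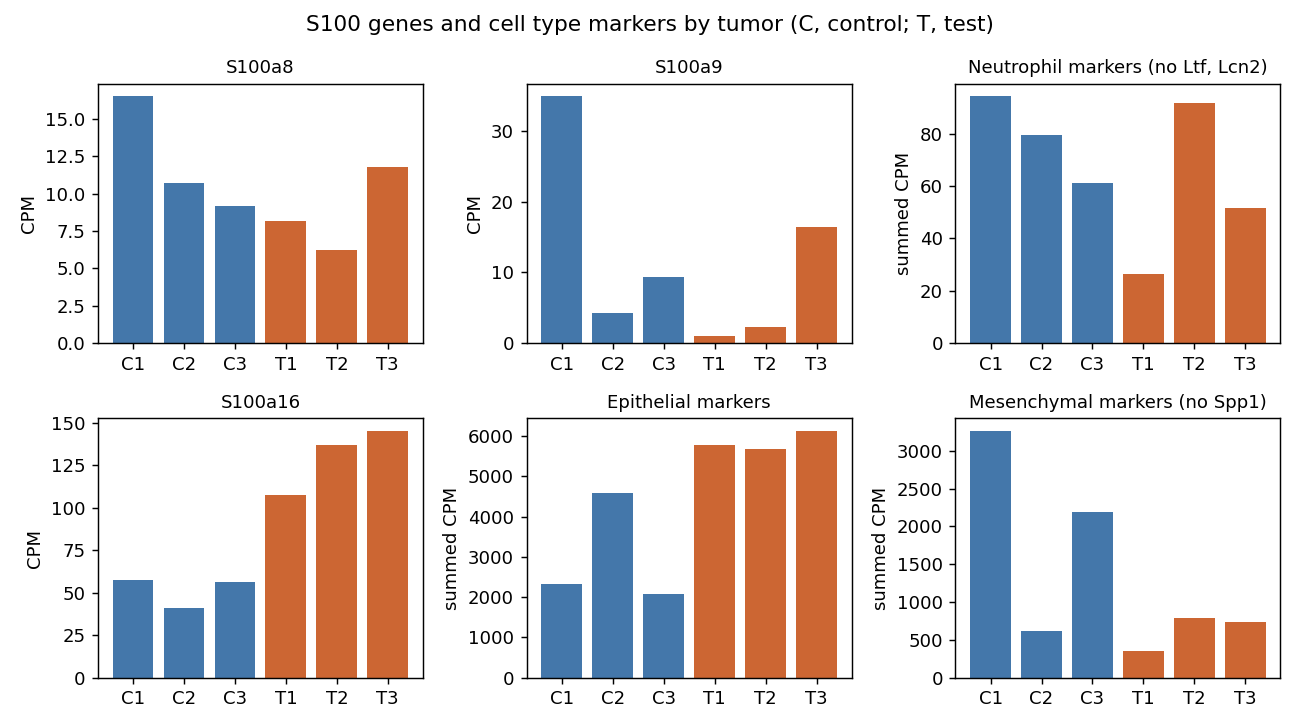
S100a8, S100a9 and S100a16 levels in CPM and summed CPM of neutrophil, epithelial and mesenchymal markers in each tumor (bars from 0, 1 bar per tumor, blue control and orange test). S100a8 and S100a9 are highest in control tumor 1, and S100a16 is higher in all 3 test tumors. The neutrophil sum, without Ltf and Lcn2, is 91.8 CPM in test tumor 2 and 94.4 CPM in control tumor 1. In test tumor 2 it is mostly Cxcr2 and Cd177, which are higher there than in control tumor 1. The other 5 of the 7 tested genes are lower there. These genes were singled out after their values were seen.

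Centred on each gene's mean over the tumors, the members fell into a set that peaked in test tumor 2 and others that did not. S100a1, S100a4, S100a6, S100a10, S100a11 and S100a13 were highest in test tumor 2, and their sum drove the total of the 10 genes, which was 935, 823 and 757 CPM in the control tumors and 974, 2040.3 and 1311 CPM in the test tumors. Only S100a4 (1.03) and S100a13 (0.46) stayed highest in test tumor 2 on the centred scale once the trend with gene length was removed. S100a1 (0.76), S100a6 (0.44) and S100a10 (0.45) were then highest in test tumor 3, and S100a11 (0.23) in control tumor 1. In the counts as deposited, S100a16 was highest in test tumor 3, S100a8 and S100a9 in control tumor 1, and S100a14 in control tumor 2. S100a1 and S100a16 were nearest to each other, with a mean difference of 0.30 on the centred log2 scale. S100a9 was the farthest member from each of the other 9, and its nearest was S100a8, at 1.09. Outside the family, among 6157 variable genes, S100a9 lay nearest to Slc16a3 (0.14), Ptgs2 (0.26) and P4ha1 (0.29). Slc16a3 exports lactate, Ptgs2 makes prostaglandins and P4ha1 hydroxylates collagen, and all 3 were highest in control tumor 1 and lowest in test tumor 1. Ptgs2, for example, was 79.6, 6.60 and 18.9 CPM in the control tumors and 1.96, 6.71 and 27.1 CPM in the test tumors. S100a8 lay nearest to Abcc1 (0.09), Abhd18 (0.13) and Kdm5c (0.14). S100a4 lay nearest to Mc1r (0.19), Ctrcos (0.23) and Gm20597 (0.23), all with their highest level in test tumor 2. S100a14 lay nearest to D11Wsu47e (0.19), Khdrbs3 (0.20) and 2810408I11Rik (0.20). These distances describe 6 tumors that share depth and gene-length trends, and carry no test. The likeness of the nearest genes to a member, with their highest and lowest tumors, follows from how they were chosen.

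**Figure D5:**
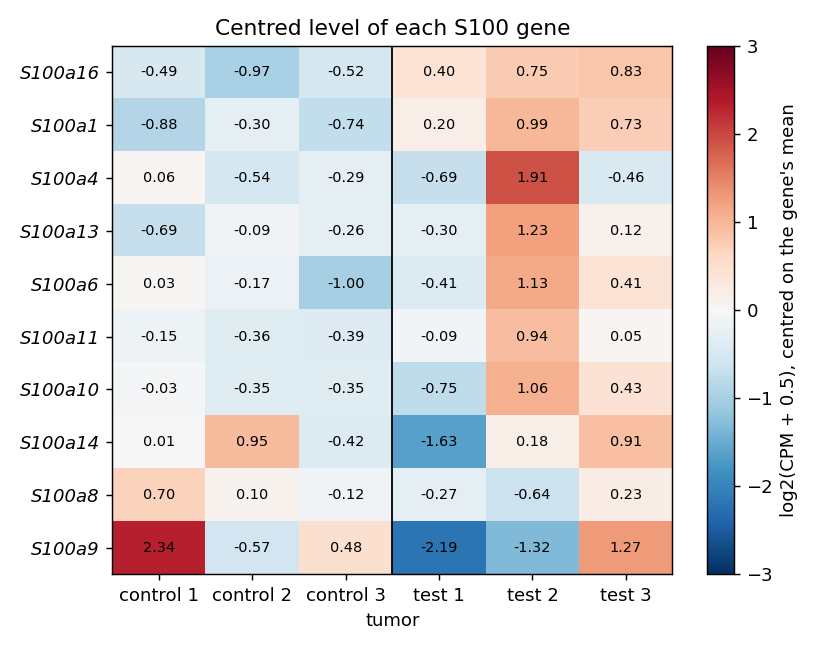
Centred log2(CPM + 0.5) of each S100 gene (y axis, ordered by fold change) in each tumor (x axis), with color from -3 to 3 around the gene's mean and the value printed. S100a16 and S100a1 are below 0 in all control tumors and above 0 in all test tumors, and S100a9 runs from -2.19 in test tumor 1 to 2.34 in control tumor 1.

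The receptors and binding partners of S100 proteins were compared in the same fit. Of 29 genes 26 were tested, of which 13 were higher and 13 lower in the test tumors, with a median log2 fold change of -0.02. At a false discovery rate of 0.05 none was called by edgeR, and 2 were higher at an unadjusted p under 0.05, Anxa1 and Cd14, against 3.15% of all genes higher and 8.41% in either direction. In DESeq2 6 of 29 reached that p, against 8.61% of all genes. Anxa1, the annexin partner of S100a11, was 145, 231 and 82.5 CPM in the control tumors and 346, 353 and 594 CPM in the test tumors. Every test tumor lay above every control tumor, and the log2 fold change was 1.50 ± 0.43 (SE, unadjusted p of 0.00921, adjusted p of 0.446 in edgeR). Cd14, a coreceptor of TLR4, was 57.6, 141 and 72.4 CPM in the control tumors and 196, 183 and 185 CPM in the test tumors. These groups did not overlap either, with a log2 fold change of 1.06 ± 0.36 (SE, adjusted p of 0.483).

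The other receptors and partners named here overlapped between groups and did not pass the test. Tlr4 was 24.7 to 31.7 CPM in the control tumors and 17.3 to 32.5 CPM in the test tumors (log2 fold change of 0.00 ± 0.32, SE). Ager, for RAGE, was at 0.347 to 1.41 CPM in the control tumors and 0.424 to 2.56 CPM in the test tumors, close to the floor. Bsg, for the S100a9 receptor basigin, was 552 to 1220 CPM in the control tumors and 453 to 816 CPM in the test tumors (-0.26 ± 0.41, SE). Anxa2, the partner of S100a10, was 319 to 396 CPM against 361 to 557 CPM in the test tumors (0.44 ± 0.28, SE). Ahnak, the large scaffold that binds S100a10 with annexin A2, had a log2 fold change of 0.11 ± 0.43, and Cacybp, the calcyclin binding protein, of -0.04 ± 0.28 (SE). Plaur, the urokinase receptor, was 2.92 to 6.94 CPM in the control tumors and 6.34 to 9.13 CPM in the test tumors (0.59 ± 0.45, SE).

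Of 15 further S100 and fused S100 genes, S100a2, S100a5, S100a7l2, S100z, Flg and Flg2 were not listed, and 2 were tested. S100b, known from glia, was 16.1, 81.0 and 50.5 CPM in the control tumors and 7.38, 51.1 and 25.7 CPM in the test tumors. It overlapped between groups (-0.81 ± 0.75 on the log2 scale, SE, adjusted p of 0.793 in edgeR), and its lowest tumors were control tumor 1 and test tumor 1, whereas Schwann cell markers summed to 578 and 584 CPM there, against 316 to 630 CPM in the other 4 tumors. Tchh, for trichohyalin of hair follicles, was 0.579, 0.757 and 1.70 CPM in the control tumors and 2.19, 1.59 and 15.9 CPM in the test tumors. Its log2 fold change of 2.68 ± 1.00 (SE, unadjusted p of 0.0288, adjusted p of 0.521) came with overlapping groups, and its highest level was in test tumor 3. S100g, for calbindin-D9k, had 0, 10 and 0 counts in the control tumors and 7, 92 and 4 in the test tumors, and Rptn had 37 counts in control tumor 2 and in test tumor 3 and at most 1 elsewhere.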

How the data were processed

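Tumor RNA was sequenced from 3 test and 3 control tumors. The submitters' processing notes name BWA, Bowtie and RSEM with build mm10. The authors deposited, per tumor and gene, an expected count (an estimate of reads, not normalized), an FPKM (normalized by the authors for gene length and depth) and a length for each gene, used here to check for trends with length. Strand of counting is not given in the sources used here. Genes missing from a tumor's list were set to 0.

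Expected counts were rounded for edgeR 4.0.16 in R 4.3.3 (filterByExpr, TMM, quasi-likelihood test, no covariate, Benjamini-Hochberg adjustment over 13706 genes). The standard error is the size of the log2 fold change divided by the square root of F. CPM values use TMM library sizes, and log2 levels a pseudocount of 0.5. Exact permutation tests were two-sided over all splits of 6 tumors. The fit was tested on simulated data. Marker, partner and family lists were tallied by counts. Likeness was the mean absolute difference of centred log2 levels among tested genes with an SD of at least 0.5, for S100a4, S100a8, S100a9 and S100a14. Named genes were all members, family genes with at least 10 counts in a tumor, 8 listed partners, any partner with an unadjusted p under 0.05, and the highest gene of a marker list. Promoter windows came from RefSeq GRCm38.p6.

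Alternatives were RLE normalization, no filter, at least 10 counts in every tumor, DESeq2 1.42.0, limma-trend (limma 3.58.1) on log2 FPKM with a pseudocount of 1 or of 0.1, for genes averaging 1 FPKM or more, a block for the replicate number, and leaving out each tumor. Removing each tumor's loess trend with gene length (span 0.5) was added after the data were seen. The members and lists were chosen with earlier results of these data known. Counts are subject to counting error, and the floor covers that alone.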

Additional observations from a re-analysis of the deposited data

How the results depend on the processing

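Each alternative setting gave 1 estimate per gene that could be fitted. Of these estimates, 134 kept the direction and the side of a false discovery rate of 0.05 of the main fit. The 5 exceptions were S100a1 (1.29) and S100a16 (1.33), called under DESeq2, and the reversals of S100a4 and S100a14, whose values ran from -0.36 to 1.49 and from -0.81 to 0.37 when each tumor was left out. DESeq2 called 2 S100 genes, and it was the only alternative that called any. Leaving out each tumor, 2 to 6 S100 genes had an unadjusted p under 0.05, and 3 to 6 did not overlap, with 6 in both without test tumor 1 and 5 non-overlapping without test tumor 3. Over all genes the same settings gave 4.65% to 14.3% at an unadjusted p under 0.05 in either direction, and 8.29% to 16.2% higher and 7.2% to 19.1% lower without overlap. For receptors and partners the count at an unadjusted p under 0.05 was 2 of 26 tested. It was 5 of 29 with no filter, 3 of 25 with either limma-trend fit and 6 of 29 under DESeq2. When a tumor was left out it was 1 to 4 of 26 or 27 (1 without control tumor 1 or 3, 4 without control tumor 2 or test tumor 3). For other family genes it was 1 of 2 tested, 2 of 9 under DESeq2 and 0 of 2 with either limma-trend fit. With at least 10 counts in every tumor it was 0 of 1, as Tchh, with 5 counts in control tumor 1, was no longer tested. When a tumor was left out it was 0 to 1 of 2 to 4 (0 without control tumor 1 or 2). The settings thus differ in the genes tested, and other causes were not tested. S100a9 could not be fitted with at least 10 counts in every tumor.

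The groups share replicate numbers, but the labels state no pairing. The correlations of deviations of same-numbered tumors were -0.03, 0.12 and -0.14, against -0.16 to 0.22 for tumors of unlike number. These values cannot show whether the tumors were paired. With the replicate number as a block, the log2 fold changes were 1.28 for S100a1 and 1.33 for S100a16. In that fit 2 of 10 S100 genes had an unadjusted p under 0.05, as did 2 of 2 tested family genes and 3 of 26 partners. The share over all 13706 genes was 7.7%, and no gene passed a false discovery rate of 0.05. With 3 tumors per group and a common biological coefficient of variation of 0.434, changes such as that of S100a9 could not be separated from the spread between tumors, and its 9 counts in test tumor 1 limit its level there.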

Other observations

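The other marker lists were compared in the same tumors, and their sums overlapped between the groups. Macrophage markers were higher in 5 and lower in 7 of 12 genes, with sums of 634 to 1255 CPM in the control tumors and 504 to 1175 CPM in the test tumors, led by Lyz2. Dendritic cell markers, 3 tested, summed to 19.7 to 58.2 CPM and 18.1 to 53.4 CPM, led by Itgax, and endothelial markers, led by Pecam1, to 96.1 to 141 CPM and 116 to 142 CPM. T cell markers, led by Lck, had 2 of 3 tested genes higher. Suprabasal keratinocyte markers, led by Sbsn, summed to 7.88 to 44.2 CPM in the control tumors and 19.2 to 59.95 CPM in the test tumors, with 2 of 4 tested genes higher. Mesenchymal markers were lower in 8 of 8 genes, 5 of them at an unadjusted p under 0.05, and Spp1 was their highest gene. Adipocyte markers summed to 6.16 to 14.1 CPM in the control tumors and to 151.5, 23.6 and 1.80 CPM in test tumors 1 to 3, led by Plin4, and skeletal muscle markers were led by Myh4. Of 5 tested Schwann cell markers 2 were higher, and Sox10 was the highest of them.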
